A study of Homo sapiens with 45 samples.

Results

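The 10 genes described here are immediate early genes: the AP-1 subunits FOS, FOSB, JUN and JUNB, the zinc finger factors EGR1, EGR2 and EGR3, the orphan nuclear receptor NR4A1, the synaptic protein ARC and the nuclear protein IER2. They were chosen by name, through the GENCODE release 29 symbols of the Ensembl identifiers, and are 10 of 58233 genes in the count and abundance tables. All 10 passed the filter on low counts that left 19436 genes for testing. The cells were of the established human embryonic stem cell line H9 and had first been grown as neuromesodermal progenitors with a GSK3 inhibitor, bFGF, and inhibitors of activin and BMP receptors. Cells labelled day 1 to day 15 were then grown in retinoic acid (RA, 100 nM) and the Smoothened agonist SAG (500 nM), against the control label of day 0. There were 3 libraries on each of 15 days, with no day 3, giving 45 libraries. Cells were dissociated and replated on day 0, a ROCK inhibitor was present over the first days after plating and then withdrawn, and medium was changed on alternate days. Time, treatment and handling therefore cannot be told apart between day 0 and later days. The replicates are named only as biological replicates, so p-values measure the spread between these samples.

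Immediate early genes are transcribed within minutes of a stimulus without new protein synthesis. Growth factor signals reach FOS and EGR promoters through ERK and the ternary complex of SRF with its partners, calcium and cAMP act through CREB, and actin changes act through SRF and its MRTF partners. In neurons EGR1, FOS, NR4A1 and ARC are widely used as readouts of activity, while JUN and JUNB also act in stress and injury responses. A daily sample gives the standing level of such transcripts, not the course of a pulse.

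Promoter windows from RefSeq (GRCh38.p14, 250 bases before to 50 bases after the start) were found for 8 of the 10 genes. They were searched on both strands for the CArG box of SRF and for TGACG, the CREB half-site. The windows of JUN, EGR1, EGR2 and FOS are shown because results below turn on these genes. CArG boxes and TGACG are in capitals, TGACG being written CGTCA where it lies on the other strand. The windows are chr1:58783998-58784297 (minus strand), chr5:138465229-138465528 (plus), chr10:62816317-62816616 (minus) and chr14:75278578-75278877 (plus).
JUN: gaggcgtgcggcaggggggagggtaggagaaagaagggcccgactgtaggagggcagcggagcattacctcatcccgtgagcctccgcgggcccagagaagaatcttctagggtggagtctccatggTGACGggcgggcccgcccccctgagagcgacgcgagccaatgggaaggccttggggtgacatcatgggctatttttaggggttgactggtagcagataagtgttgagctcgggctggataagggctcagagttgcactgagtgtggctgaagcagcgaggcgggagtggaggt
EGR1: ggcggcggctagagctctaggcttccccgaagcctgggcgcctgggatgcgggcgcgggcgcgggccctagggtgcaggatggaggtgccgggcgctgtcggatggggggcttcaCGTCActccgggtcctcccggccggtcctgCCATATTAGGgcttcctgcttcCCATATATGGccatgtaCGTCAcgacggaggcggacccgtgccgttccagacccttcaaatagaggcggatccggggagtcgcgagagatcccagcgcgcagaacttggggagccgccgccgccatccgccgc
EGR2: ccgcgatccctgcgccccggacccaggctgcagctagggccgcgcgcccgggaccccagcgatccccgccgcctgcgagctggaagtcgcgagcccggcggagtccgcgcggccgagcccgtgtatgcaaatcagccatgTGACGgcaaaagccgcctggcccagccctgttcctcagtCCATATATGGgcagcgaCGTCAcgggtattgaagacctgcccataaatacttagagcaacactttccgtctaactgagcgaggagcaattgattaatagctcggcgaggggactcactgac
FOS: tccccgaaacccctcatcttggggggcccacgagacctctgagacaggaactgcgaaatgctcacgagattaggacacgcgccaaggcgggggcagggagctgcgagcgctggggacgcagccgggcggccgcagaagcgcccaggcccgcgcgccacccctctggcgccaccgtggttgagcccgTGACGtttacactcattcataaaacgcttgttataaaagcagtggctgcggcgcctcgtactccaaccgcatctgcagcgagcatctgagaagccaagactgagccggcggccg
CArG boxes were found in 2 of the 8 genes. EGR1 held a pair, whose first bases lay 105 and 83 bases before the start, and EGR2 held one at 71 bases. Among all 27305 genes with windows 1.604% held a CArG box. TGACG was found in 7 of the 8 genes, NR4A1 being the exception, and in 28.423% of all genes. The full CREB site TGACGTCA and the AP-1 site TGANTCA were in none of the 8, against 2.249% and 9.368% of all genes. A match describes letters and is not a bound site, and a window without a match says nothing of the factor.

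Library totals ran from 22835823 to 39066247 counts, and mitochondrial genes held 1.795% to 5.287% of them. Depth bore most on EGR2, which had 1 to 62 counts per library, and on EGR3, which had 4 to 94. JUN had 29 to 3186 counts and IER2 653 to 2092. Marker genes changed with day, with the summed level of 7 motor neuron markers at 0.341 to 0.764 CPM on day 0, 98.7 to 115.1 CPM on day 8 and 86.0 to 112.0 CPM on day 15. The members of this sum did not all move alike, as given for day 10 below. The summed level of 7 mesenchyme markers was 648.0 to 1411.7 CPM on day 10, against 28.9 to 43.9 CPM on day 4. The collagen gene COL1A1 made up 92.1% to 93.7% of that sum on day 10 and 43.0% to 45.9% on day 4, and the other 6 markers summed to 50.9 to 93.9 CPM on day 10, against 16.5 to 23.7 CPM on day 4. In these bulk libraries, fewer cells of a type and less RNA per cell cannot be told apart. FOSB, JUNB, EGR3, NR4A1 and IER2 overlap other genes in GENCODE 29 and no source used here gives the strand used in counting, which leaves their levels less certain.

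**Figure D1:**
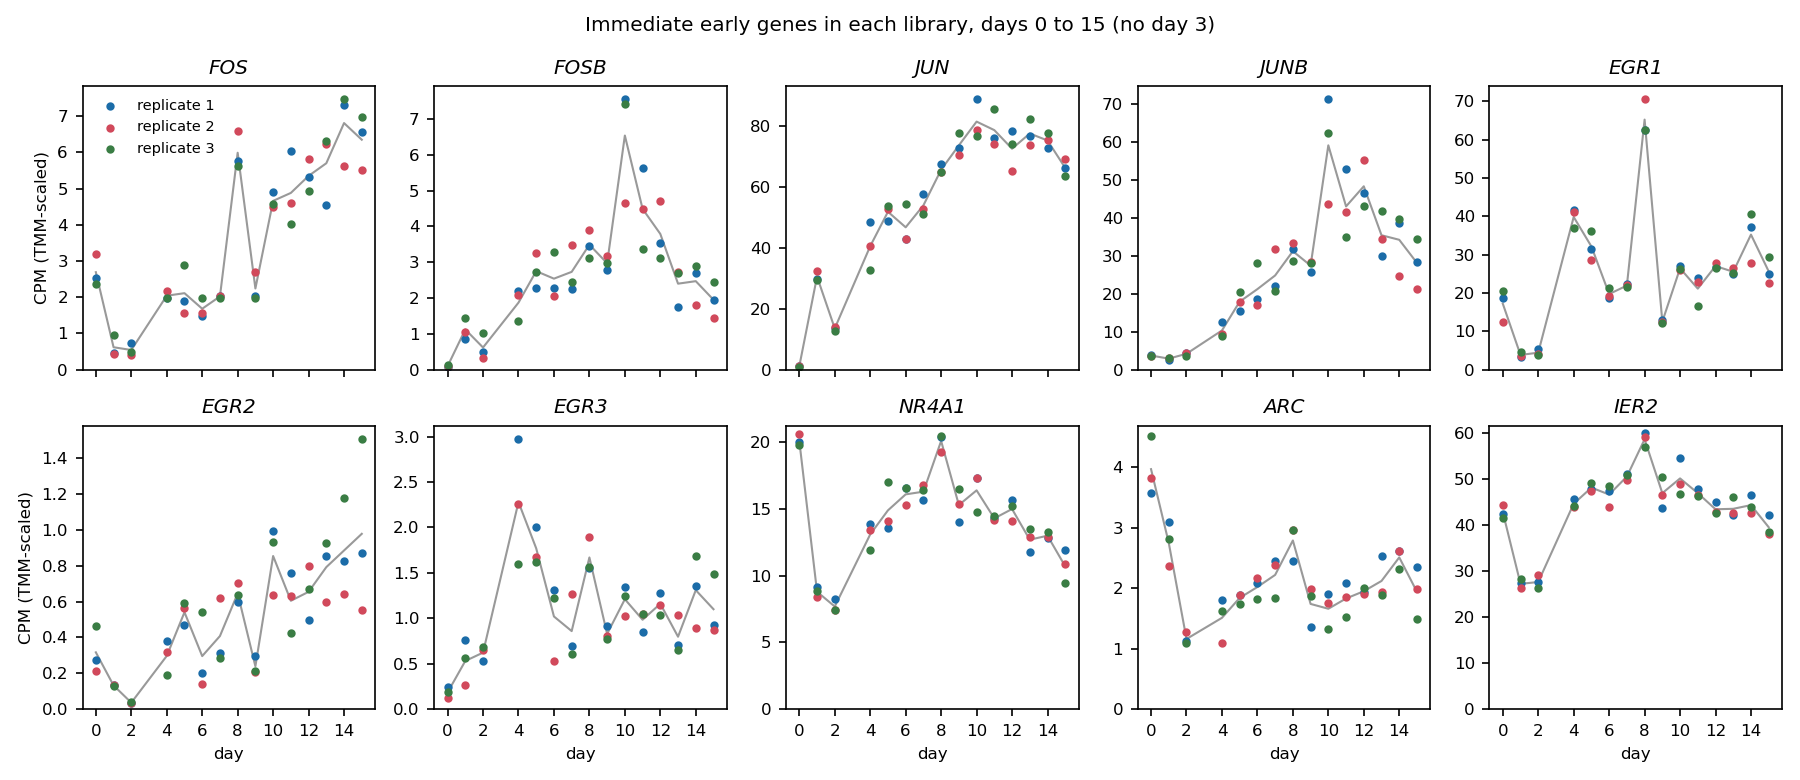
Level of each gene (CPM, linear axis) in each library against day, with replicates in separate colours and a line through the day means. EGR1 stood at 62.4 to 70.6 CPM on day 8, above its libraries of every other day, while JUN and JUNB reached their highest day mean on day 10.

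Per gene length, IER2 was the highest of the 10 at the start and JUN at the end. On day 0 IER2 averaged 30.5 ± 1.01 TPM (SD, n = 3 here and below), followed by NR4A1 at 16.1 ± 1.36 TPM and EGR1 at 8.82 ± 2.2 TPM, none of which overlapped in their libraries. On day 8 the order was IER2 (45.8 ± 1.37 TPM), EGR1 (37.6 ± 2.73 TPM), JUN (33.4 ± 0.676 TPM) and JUNB (31.8 ± 2.33 TPM), with JUN and JUNB overlapping. On day 15 JUN (35.9 ± 1.68 TPM) stood above IER2 (31.4 ± 1.67 TPM) without overlap, while the libraries of JUNB (30.4 ± 7.03 TPM) spread over 23.2 to 37.2 TPM and overlapped both. EGR2 was last at 0.473 ± 0.112 TPM on day 8. On day 15 the last 4 genes, FOSB, ARC, EGR2 and EGR3 (1.35, 1.27, 0.737 and 0.633 TPM), each overlapped the next in the order, and FOSB lay apart from FOS above it. All 10 genes differed among the 15 days, with Benjamini-Hochberg adjusted p between 2.38e-29 and 2.91e-09 in the edgeR quasi-likelihood test, as did 91.5% of all genes tested. There were 20 contrasts for each gene, and 43 of 140 tests of a step between neighbouring sampled days passed an adjusted p of 0.05, against 15.7% of all such tests over all genes.

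**Figure D2:**
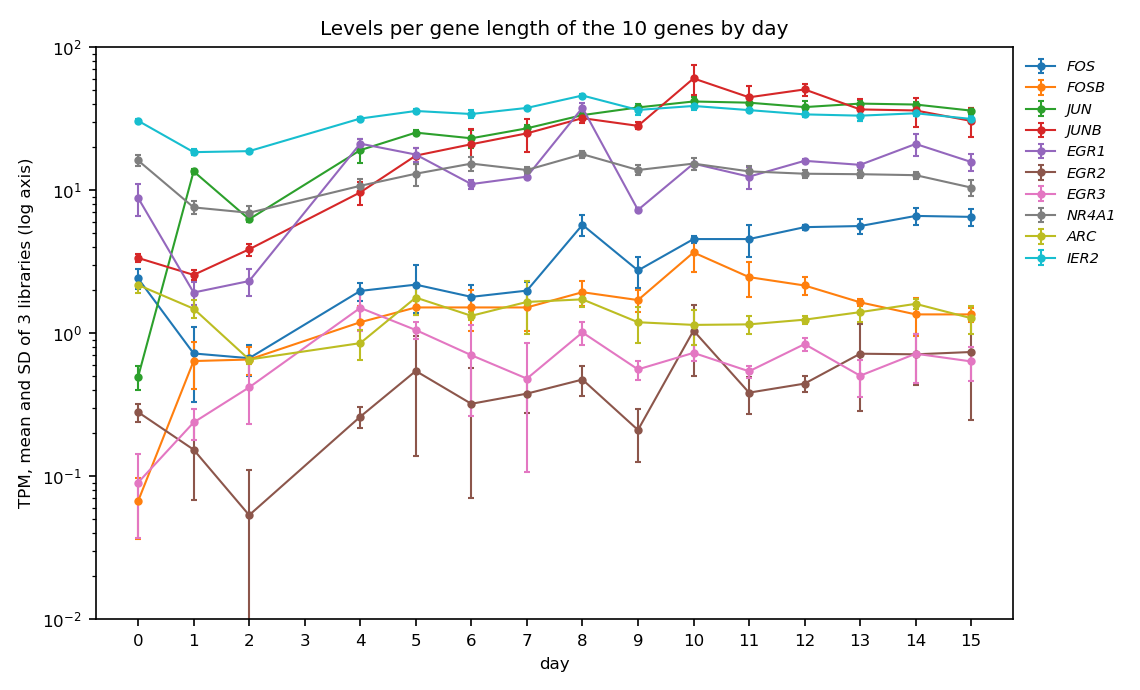
Mean level per gene length (TPM, log axis) of the 10 genes against day, with bars for the SD of 3 libraries. The bar of EGR2 on day 2 reaches below the axis. JUN climbed to 41.6 TPM on day 10, while IER2 stayed between 18.4 and 45.8 TPM.

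On the first day the genes moved in both directions. JUN, which forms AP-1 dimers with FOS proteins, had 29.8, 32.3 and 29.4 CPM on day 1, against 1.06, 1.31 and 0.898 CPM on day 0. EGR1 had 3.28, 3.52 and 4.63 CPM on day 1, against 18.6, 12.4 and 20.6 CPM on day 0. Neither pair of groups overlapped, and the day 1 libraries were above day 0 for JUN and below it for EGR1. The log2 change was 4.80 ± 0.147 (SE) for JUN and -2.19 ± 0.173 for EGR1 (adjusted p = 2.63e-26 and 2.8e-13). FOSB had 0.863, 1.06 and 1.43 CPM on day 1, against 0.0606, 0.0917 and 0.124 CPM on day 0 (9 counts over the day 0 libraries), a log2 change of 3.53 ± 0.507. The related FOS, which like FOSB pairs with JUN proteins, had 0.464, 0.432 and 0.952 CPM on day 1, against 2.54, 3.18 and 2.35 CPM on day 0, a log2 change of -2.17 ± 0.250. Thus 3 genes rose (JUN, FOSB and EGR3) and 6 fell (EGR1, FOS, EGR2, NR4A1, IER2 and ARC), where 30.1% of all genes tested rose and 31.7% fell. The number that rose is near the share of all genes, and 61.7% of all genes tested were called in either direction in this step. JUNB had a log2 change of -0.37 (adjusted p = 0.329), and was called only when day 0 and day 1 were fitted alone (adjusted p = 0.0366). Weaker calls were those of EGR2, lost without day 0 replicate 3 or any of the day 1 libraries (adjusted p between 0.0715 and 0.205), EGR3, lost without day 1 replicate 1 (0.055), and ARC, lost without day 0 replicate 3 (0.0517) or day 1 replicate 2 (0.0573).

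Other lists of the same pathways split in the same step. Of 14 genes that respond to actin and to YAP and TEAD, 12 rose and none fell on day 1, with a median log2 change of 1.33 against 0 for all genes tested. The matricellular gene CTGF averaged 256.7 ± 10.3 CPM on day 1 against 10.6 ± 0.859 CPM on day 0, and TAGLN, an actin-binding protein, averaged 160.3 ± 3.42 CPM against 7.58 ± 2.36 CPM. Of 12 feedback genes of ERK signalling, 10 fell and 2 rose, with a median of -2.44. ETV5, an ETS factor induced by FGF, averaged 2.26 ± 0.292 CPM on day 1 against 146.2 ± 6.30 CPM on day 0. SPRY4, an inhibitor of ERK signalling, averaged 2.51 ± 0.123 CPM against 81.8 ± 13.8 CPM. Of 20 further immediate early genes tested 11 rose and 4 fell. Among them FOSL2, another AP-1 subunit, averaged 35.7 ± 0.857 CPM against 3.00 ± 0.484 CPM, and MYC averaged 26.1 ± 1.16 CPM against 4.98 ± 0.448 CPM.

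Between day 2 and day 4 nearly the whole set rose. JUN and ARC had fallen on day 2 against day 1, by 1.18 and 1.24 on the log2 scale, the 2 genes called in a step where 11.9% of all genes tested fell. On day 4, 9 of the 10 genes were higher than on day 2, against 19.5% of all genes tested, with a median log2 change of 1.60 against 0.003. EGR1 had 41.6, 41.0 and 36.8 CPM on day 4, against 5.44, 4.06 and 3.72 CPM on day 2, a log2 change of 3.17 ± 0.164 (adjusted p = 2.77e-17). The groups lay far apart, and day 4 was also above all day 0 libraries of EGR1. FOS had 1.97, 2.17 and 1.99 CPM on day 4, against 0.729, 0.398 and 0.493 CPM on day 2 (log2 change 1.89 ± 0.264). EGR2, a factor of hindbrain segments and Schwann cells, had 25 counts over the day 4 libraries and 3 over the day 2 libraries, a ratio of 8.27 with a 95% counting interval of 2.52 to 42.8. ARC had 1.81, 1.09 and 1.63 CPM on day 4, against 1.13, 1.27 and 1.10 CPM on day 2. Those groups overlapped, and its log2 change of 0.40 did not pass (adjusted p = 0.132), although it did without day 4 replicate 2 (log2 change 0.57, adjusted p = 0.0365). Of the 9 calls, EGR2 lost its own without all libraries of replicate 1 and in limma on log2(TPM + 1). FOSB was also not called in limma on log2(TPM + 1) (adjusted p = 0.0718).

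Of the ERK feedback genes, 10 of 12 rose and 2 fell between day 2 and day 4, and ETV5 stood at 23.1 ± 0.759 CPM on day 4. Among the further immediate early genes 14 of 20 rose and 1 fell, with the AP-1 subunit FOSL1 highest in change (log2 change 2.89). The step spans the sampled gap of day 3 and the withdrawal of ROCK inhibitor, whose part in the result was not tested. Over day 4 against day 1, 8 genes were higher and ARC was lower, where 24.4% of all genes tested rose and 22.8% fell. The call of FOSB in that comparison (log2 change 0.76, adjusted p = 0.0425) was lost without any of day 1 replicates 1 and 2 and day 4 replicates 1 and 2 (adjusted p between 0.101 and 0.172). EGR2 missed it (adjusted p = 0.075) and passed without day 4 replicate 3 (0.0439).

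**Figure D3:**
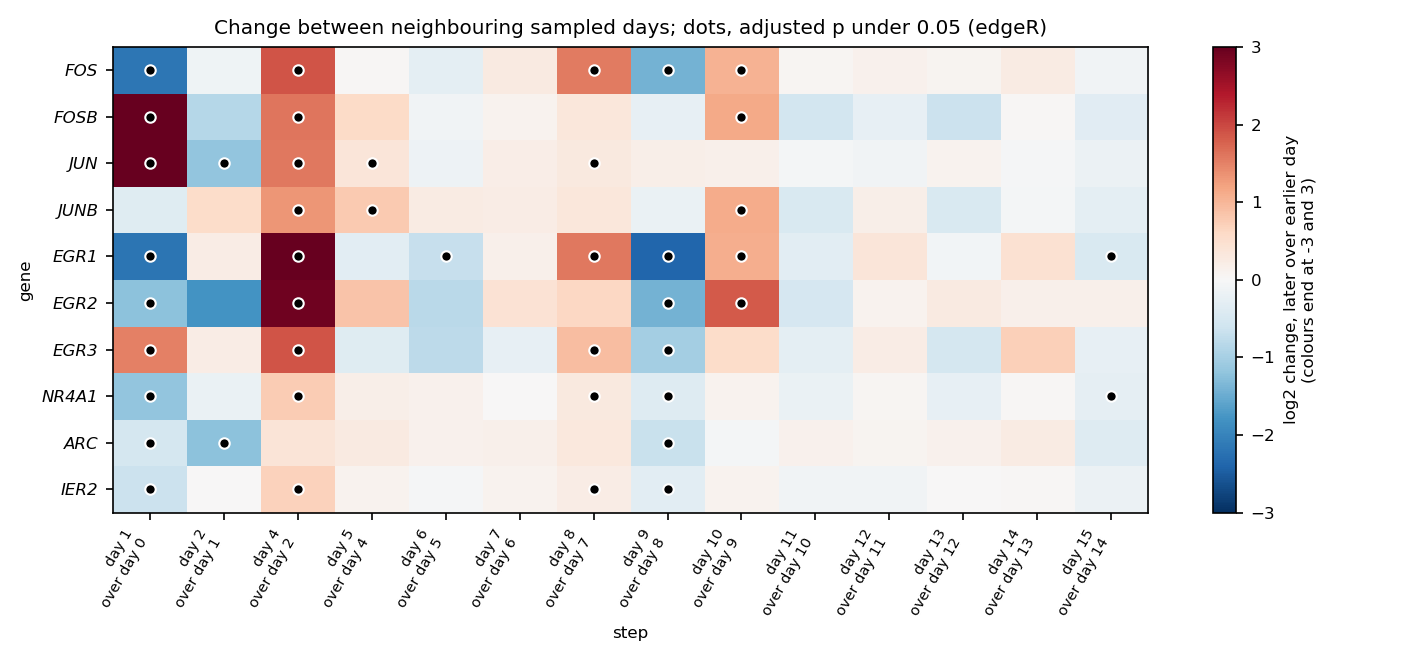
Log2 change of each gene from each sampled day to the next, as the later over the earlier day, with dots where the adjusted p was under 0.05. Calls gather in the steps to days 1, 4, 8, 9 and 10, and no gene was called in the 4 steps between days 10 and 14. Of all genes tested, 61.7%, 35.5%, 9.78%, 21.5% and 29.6% were called in the steps to those days. Between days 10 and 14 the share of all genes was 0.314% to 5.55% per step.

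EGR1 and FOS were higher on day 8 than on the days beside it. EGR1 averaged 39.8, 32.1, 19.7 and 21.9 CPM on days 4 to 7, 65.2 CPM on day 8, and 12.5 CPM on day 9. Its libraries held 62.4, 70.6 and 62.6 CPM on day 8, against 22.3, 22.0 and 21.5 CPM on day 7. No library of another day reached the day 8 level, the next day mean being 39.8 CPM on day 4. FOS had 5.76, 6.58 and 5.63 CPM on day 8, against 2.04, 2.04 and 1.98 CPM on day 7. FOS was later as high again, with its highest day means on days 14 and 15 (6.81 and 6.35 CPM, against 5.99 CPM on day 8). The log2 change of day 8 over day 7 was 1.57 ± 0.137 for EGR1 and 1.57 ± 0.191 for FOS (adjusted p = 1.05e-09 and 5.6e-07). In this step 6 of the 10 genes rose and none fell, while 5.19% of all genes tested rose. The other calls were EGR3 (log2 change 0.93), NR4A1 (0.30), JUN (0.28) and IER2 (0.22), each with no overlap between the days. They were fragile: EGR3 was lost without day 7 replicates 1 or 3 or any day 8 library (adjusted p between 0.0671 and 0.173), and JUN without day 7 replicates 2 or 3 or any day 8 library (0.0808 to 0.152). NR4A1 was lost without day 7 replicate 1, day 8 replicate 1 or day 8 replicate 3 (0.0564 to 0.073), and IER2 without day 8 replicate 1 (0.0523).

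The rise had reversed by day 9. EGR1 had 12.9, 12.3 and 12.2 CPM on day 9, a log2 change of -2.39 ± 0.142 over day 8 (adjusted p = 9.79e-14). FOS had 2.03, 2.69 and 1.99 CPM on day 9, a log2 change of -1.41 ± 0.186. Both genes lay below all their day 8 libraries, and EGR1 also below its day 7 libraries. In all 7 genes fell and none rose, while 11.0% of all genes tested fell. EGR2 (log2 change -1.43), EGR3 (-1.01), ARC (-0.68), NR4A1 (-0.39) and IER2 (-0.32) were the others. ARC, whose product acts at synapses, had 1.36, 1.99 and 1.87 CPM on day 9, against 2.45, 2.96 and 2.96 CPM on day 8. Its call was lost without day 9 replicate 1 (adjusted p = 0.0578), and that of EGR3 without day 8 replicate 2 (0.052). Without all libraries of replicate 1, the calls of EGR2, EGR3, ARC and NR4A1 were lost (edgeR adjusted p = 0.0664 for NR4A1). EGR2 also lost its call without all libraries of replicate 2, and EGR3 without those of replicate 3. In limma on TPM, EGR2, EGR3 and ARC were not called. JUN had a log2 change of 0.17 and JUNB of -0.19 (adjusted p = 0.202 and 0.567), and both passed when the days were fitted alone (0.0159 and 0.0314). FOSB, at -0.23, did not pass (adjusted p = 0.558).

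A few genes of related lists were called on day 8 over day 7, where 5.19% of all genes tested rose. Of the further immediate early genes, 3 of 20 rose over day 7, namely the RNA-binding protein ZFP36 (log2 change 0.59), the AP-1 subunit JUND (0.31) and the stress gene PPP1R15A (0.27). Of 12 ERK feedback genes, DUSP6, a phosphatase of ERK, rose alone, while 5 of the 12 had an unadjusted p under 0.05. It averaged 126.8 ± 2.89 CPM on day 8 against 97.4 ± 2.69 CPM on day 7, and 74.5 ± 0.316 CPM on day 9 against that day 8 level. Of 13 upstream regulators 1 rose and 3 fell, where 4.58% of all genes tested fell. The ERK kinase MAPK3 rose (log2 change 0.22), and the SRF coactivator MRTFB (-0.36), the SRF partner ELK4 (-0.34) and the factor CREB1 (-0.19) fell. None of 14 activity-regulated neuronal genes and none of 14 actin and YAP-TEAD genes passed in edgeR in the step to day 8, with 1 and 0 at an unadjusted p under 0.05. None of 7 mesenchyme markers passed either (0 unadjusted), and their summed level was 350.7 to 432.9 CPM on day 8 against 233.1 to 385.7 CPM on day 7. Motor neuron markers rose in 4 of 7 cases on day 8, at 98.7 to 115.1 CPM summed against 65.3 to 71.8 CPM on day 7. On day 9 they summed to 103.4 to 125.0 CPM, and 2 of 7 rose over day 8 and none fell, where 10.5% of all genes tested rose. The part of motor neurons in the result was not tested. The hour of harvest relative to a change of medium is not given in the labels, and its part in the result was not tested.

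On day 10 JUNB and FOSB rose, and EGR1 and FOS rose again. JUNB had 71.3, 43.6 and 62.3 CPM on day 10, against 25.7, 28.4 and 28.1 CPM on day 9, a log2 change of 1.11 ± 0.202 (adjusted p = 8.09e-05). FOSB had 7.55, 4.65 and 7.41 CPM on day 10, against 2.77, 3.16 and 2.97 CPM on day 9 (log2 change 1.14 ± 0.242). Neither gene overlapped between the days, but replicate 2 was well below the other day 10 libraries in both. FOSB lost its call without all libraries of replicate 1 (edgeR adjusted p = 0.0578). EGR2 (log2 change 1.83), EGR1 (1.08) and FOS (1.05) also rose, making 5 of 10, while 15.9% of all genes tested rose. EGR3 (log2 change 0.54), JUN (0.15), NR4A1 (0.10), ARC (-0.07) and IER2 (0.09) did not pass (adjusted p between 0.186 and 0.827). Of the further immediate early genes 12 of 20 rose, among them GADD45B, IER3 and ZFP36 (log2 change 1.36, 1.30 and 1.27), and 10 of 14 actin and YAP-TEAD genes rose. Mesenchyme markers rose in 5 of 7 cases, led in level by the collagen gene COL1A1 at 1068.7 ± 408.9 CPM on day 10 against 260.8 ± 32.1 CPM on day 9. Neuron markers fell in 7 of 8 cases, where 13.7% of all genes tested fell. Of 7 motor neuron markers 4 fell and 1 rose, SLC5A7 (log2 change 1.14). Of 9 neural progenitor markers 6 fell and 1 rose. The summed mesenchyme level was 1411.7, 648.0 and 1380.0 CPM in day 10 replicates 1, 2 and 3, against 268.3 to 334.0 CPM on day 9. Without COL1A1 it was 88.6, 50.9 and 93.9 CPM on day 10, against 29.4 to 36.3 CPM on day 9. DCN, a defining stromal gene, was near the floor at 0.332 ± 0.130 CPM on day 10. The part of these cells in the result was not tested.

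Libraries of the same day also ranked alike in 5 genes, a group picked after their values were seen. FOS, FOSB, JUNB, EGR1 and EGR2 were all highest in the same one of the 3 libraries on 7 of the 15 days, which were days 6, 8, 10, 11, 12, 14 and 15. On 3 further days 4 of them shared the highest library, and on the other 5 days 3 did. For JUNB this library was also the one with the highest mesenchyme sum on 12 of 15 days, and for FOS, FOSB, EGR1 and EGR2 on 11. Among all genes tested the median was 5 days, 1.08% reached 12 and 2.614% reached 11. Because the 5 genes were picked after their values were seen, these shares do not measure how rare their match is. No share over other groups of 5 genes was taken for the 7 days. EGR2 had 1 count in each day 2 library, so its order there carries little. Of the other members NR4A1 matched on 8 days, EGR3 and IER2 on 7, JUN on 6 and ARC on 5. With the sum taken over the 6 markers other than COL1A1, an alternative chosen after seeing the data, JUNB and EGR2 matched on 9 days and FOS, FOSB and EGR1 on 8, while 9.657% of all genes reached 9 and 16.608% reached 8. NR4A1 then also matched on 9 days. The highest library was also the deepest of its day on 9 days for JUNB, FOSB and EGR3, and on 7 for EGR1 and EGR2. For FOS and NR4A1 it was so on 6 days, for JUN and ARC on 5 and for IER2 on 4. It was the one with most mitochondrial counts on 3 days for JUNB, and on 0 (NR4A1) to 6 (ARC) over the 10 genes. The share of all genes with such matches to depth or mitochondrial counts was not taken. On day 9 the order ran the other way, with JUNB at 25.7 CPM in the library with the highest mesenchyme sum and at 28.1 and 28.4 CPM in the others. So it did on day 0, with JUNB at 3.52 CPM in the library with the highest sum and at 3.91 and 3.68 CPM in the others. On day 5 the sum was highest in replicate 2 and JUNB in replicate 3. The part of mesenchymal cells in the spread was not tested.

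**Figure D4:**
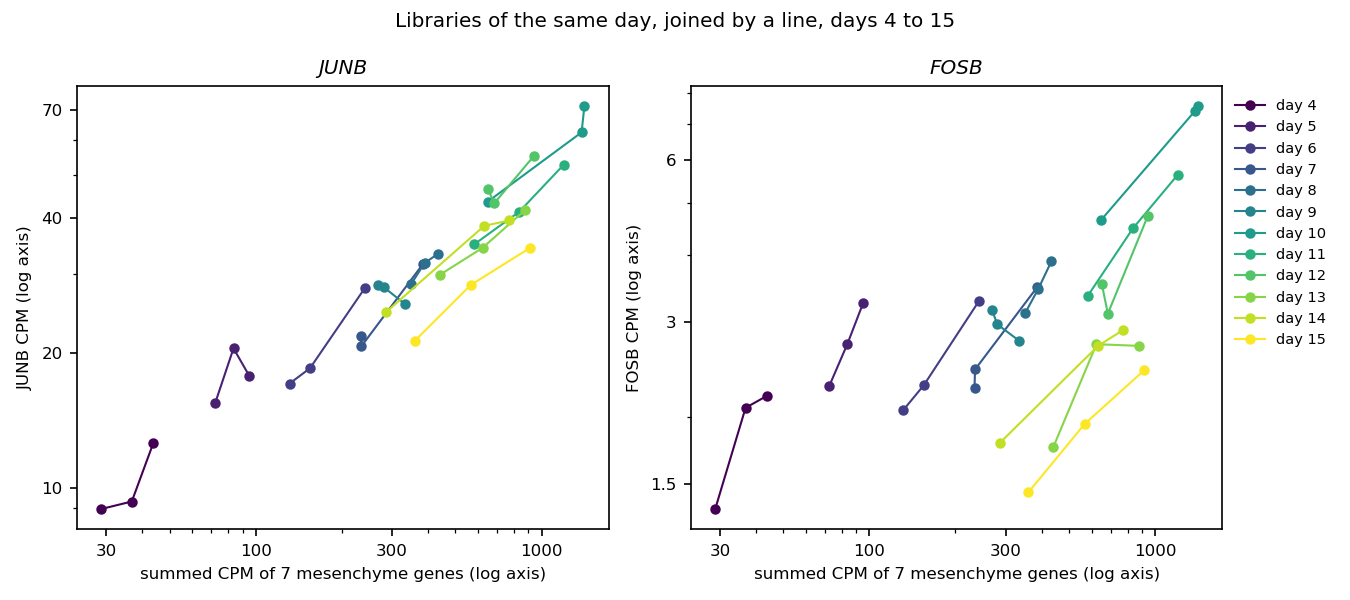
Level of JUNB and of FOSB (CPM, log axis) against the summed level of 7 mesenchyme markers (CPM, log axis) in each library of days 4 to 15, with libraries of a day joined by a line. COL1A1 made up most of the sum from day 5 on. On day 10 JUNB was 43.6 CPM at a sum of 648.0 CPM and 71.3 CPM at 1411.7 CPM.

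Over the longer stages the genes differed in their changes. Day 8 was above day 4 for 9 of 10 genes, where 27.1% of all genes tested rose. JUNB led with a log2 change of 1.59 ± 0.224, having 31.8, 33.3 and 28.6 CPM on day 8 against 12.6, 9.32 and 8.97 CPM on day 4. EGR3 alone missed the threshold, at -0.45 (adjusted p = 0.167). The call of EGR2 (log2 change 1.12, adjusted p = 0.0177) was lost without day 4 replicate 3 (0.106). Day 15 was below day 8 for 5 genes and above it for none, where 25.8% of all genes tested fell. EGR1 had 25.0, 22.6 and 29.3 CPM on day 15, a log2 change of -1.35 ± 0.134, and NR4A1 had 11.9, 10.9 and 9.43 CPM against 20.4, 19.3 and 20.5 CPM on day 8, a log2 change of -0.91 ± 0.081. IER2 (-0.57) also fell, as did FOSB (-0.84) and ARC (-0.53), which lost their calls without day 15 replicate 2 (adjusted p = 0.0541) and day 15 replicate 3 (0.111). FOS (0.08), JUN (0.01), JUNB (-0.15), EGR2 (0.60) and EGR3 (-0.60) did not pass. EGR2 and EGR3 passed without day 15 replicate 2 (adjusted p = 0.0303) and without day 15 replicate 3 (0.022). The comparisons with day 8 share its libraries, so the high EGR1 level of that day enters each.

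FOSB and JUNB had lower day means on day 15 than on day 10 and FOS a higher one, a difference that was not tested. FOSB averaged 6.54, 4.49, 3.79, 2.40, 2.47 and 1.95 CPM on days 10 to 15. JUN averaged 81.4, 78.6, 72.5, 77.5, 75.2 and 66.2 CPM on days 10 to 15, and JUNB 59.1, 43.0, 48.3, 35.4, 34.2 and 28.1 CPM. FOS averaged 4.66, 4.88, 5.35, 5.70, 6.81 and 6.35 CPM over the same days. No gene was called by edgeR or DESeq2 in the 4 steps between days 10 and 14, where 5.55%, 3.41%, 3.52% and 0.314% of all genes passed. At an unadjusted p under 0.05, 4, 1, 3 and 2 of the genes passed in those steps. In the step to day 15 EGR1 and NR4A1 fell (log2 change -0.46 and -0.28), where 3.28% of all genes tested fell. EGR1 lost its call without day 14 replicates 1 or 3 or day 15 replicates 1 or 2 (adjusted p between 0.117 and 0.295), and NR4A1 without any day 14 library or day 15 replicates 2 or 3 (0.071 to 0.349). Of the earlier small steps, JUN and JUNB rose on day 5 over day 4 (3.95% of all genes tested rose), EGR1 fell on day 6 over day 5 (log2 change -0.70, where 3.16% fell), and none passed in edgeR or DESeq2 on day 7 over day 6 (6.33% of all genes passed), where 2 genes had an unadjusted p under 0.05. The day 5 call of JUN was lost without day 4 replicate 3 or day 5 replicates 2 or 3 (adjusted p between 0.059 and 0.208). That of JUNB was lost without day 4 replicates 2 or 3 or day 5 replicates 2 or 3 (0.0794 to 0.163).

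Because medium was changed on alternate days, odd days were set against even days, a contrast chosen with an alternation of these data already known. Over days 10 to 15, odd days were lower for 4 genes and higher for none, where 9.77% of all genes tested were lower. These were FOSB (log2 change -0.51 ± 0.144), JUNB (-0.40 ± 0.115), EGR1 (-0.29 ± 0.0786) and NR4A1 (-0.24 ± 0.0468). Over days 4 to 9, odd days were lower for EGR1 (-0.85 ± 0.0802), EGR3 (-0.54 ± 0.170) and FOS (-0.37 ± 0.118) and higher for JUN (0.24 ± 0.0533), where 9.67% of all genes tested were lower and 10.0% higher. In both windows 1 call was left when the odd and even days were trimmed to the same mean day, that of EGR1 (log2 change -0.34 late and -0.49 early, adjusted p = 0.0187 and 0.0043). This trimming left out day 15 in the late window and day 9 in the early one, so it is the same check as leaving out those days. Late calls also fell to 1 without day 10, and early calls to 2 without day 7. FOS in the early window turned to 0.19 without day 8. The late call of EGR1 was lost without day 11 or day 14 (adjusted p = 0.102 and 0.199), while its early call remained without any single day (adjusted p at most 0.0043), with a log2 change between -1.30 without day 6 and -0.44 without day 8. Of single libraries, day 15 replicate 2 ended the late call of JUNB (adjusted p = 0.051). In the early window FOS lost its call without day 5 replicate 2 (0.0667) or day 6 replicate 3 (0.0648), and EGR3 without day 4 replicate 1, day 6 replicate 1 or day 6 replicate 3 (0.052 to 0.0636). The odd-even difference itself differed between the windows in 3 genes, above 0 as late minus early in EGR1 (1.70% of all genes tested) and below 0 in JUN and JUNB (4.03%). It was not taken at the same mean day or with days left out.

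The genes most like each member over the 45 libraries, by Pearson correlation of log2 CPM and given as a description, differed between members. JUN was most like CREB5 (r = 0.980), DOK6 and HIVEP3 (both 0.975), and JUNB like TMOD1, POSTN (both 0.980) and SEMA3D (0.979). EGR1 had no such close match, with PRPH at 0.885, GDF15 at 0.852 and SLC12A4 at 0.851. FOS was most like NSDHL (0.936), CHAC1 and FKBP9 (both 0.928), FOSB like JPH2 (0.957), EGR2 like TAP1 (0.917) and IER2 like PHLDA2 (0.925). EGR3 (EGF, 0.856), NR4A1 (CDHR1, 0.895) and ARC (DACT1, 0.783) were the remaining ones. Libraries of a day share their stage of culture, so these values describe the time course and not separate replicates.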

How the data were processed

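Polyadenylated RNA was measured in 45 libraries from 15 days, grouped by the day in the labels. The deposited expected counts were made by the authors with RSEM on GRCh38 after bcl2fastq 2.20.0, per the submitters' processing notes. The RSEM version, aligner, annotation and strand setting are given in no source used here. The authors scaled the deposited TPM for gene length and library total. Of the expected counts 92.5% are whole numbers, and they were rounded here. Symbols came from GENCODE release 29, which holds 57895 of 58233 identifiers. Promoter windows came from RefSeq.

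Counts were fitted in edgeR 4.0.16 (R 4.3.3) with TMM factors (0.9247 to 1.061), the default filter on low counts by day, and a robust quasi-likelihood fit with day as a factor over all 45 libraries (30 residual degrees of freedom). Benjamini-Hochberg adjustment was over 19436 genes, and adjusted p under 0.05 made a call. With 3 libraries a day the precision rests on the spread shared over days. Library totals were 22835823 to 39066247 counts. Intervals cover counting error only. CPM are scaled with the TMM factors. The fit and test were tried on counts simulated from the fitted model, for day 8 over day 7 only.

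The members and gene lists were chosen with earlier results of these data known. All 10 members were named, up to 4 called genes with the largest change per list, and the 3 genes most alike per member. Alternatives were DESeq2 1.42.0, its size factors in edgeR, no filter on low counts (37223 genes), limma 3.58.1 on log2(TPM + 1) and log2(TPM + 0.1) for 18075 genes, a 2-fold minimum change, a replicate block, the days of a comparison alone, odd and even days of the same mean day, and each replicate number and each library left out. Leaving out each day of the odd and even windows was chosen after seeing the data. The mouse samples of the series were not analysed here, and 1 gene list is not reported here.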

Additional observations from a re-analysis of the deposited data

Results flagged for a closer look

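The difference between odd and even days itself differed between days 10 to 15 and days 4 to 9 for 3 of the 10 genes, above 0 in 1 (1.70% of all genes tested) and below 0 in 2 (4.03%). The odd-even log2 difference of the late window minus that of the early window was 0.56 ± 0.112 for EGR1 (edgeR, adjusted p = 0.00171), whose odd days were lower in both windows and more so in the early one. It was -0.67 ± 0.170 for JUNB (adjusted p = 0.0148) and -0.29 ± 0.0744 for JUN (adjusted p = 0.0154). The odd-even difference of JUNB was -0.40 in the late and 0.27 in the early window, and the early value did not pass (adjusted p = 0.125). That of JUN was -0.05 in the late window, where it did not pass (adjusted p = 0.613), and 0.24 in the early one. At the same mean day the early value of JUN was 0.08 and the late value of JUNB -0.24, and neither passed in edgeR (adjusted p = 0.706 and 0.291). Those of EGR1 were -0.34 late and -0.49 early, and both passed. The difference between the windows was not taken at the same mean day or with days left out. Without the libraries of replicate 1 none of the 3 calls was left, and without those of replicate 2 the calls of JUNB and JUN were lost.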

How the results depend on the processing

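Of 77 called values of single genes 27 passed under every alternative and 43 under every one but the 2-fold threshold. Of 1548 alternative values 1327 passed, 220 did not, and 1 reversed, FOS on odd over even days 4 to 9 without day 8 (log2 0.19, adjusted p = 0.291, in a range of -0.72 to 0.19 over samples or days left out). A further 21 uncalled values were followed in 356 alternatives, and 12 of these passed, in 9 genes and comparisons. Of the 356 values 10 reversed, all on leaving out samples. The log2 ranges over samples left out were -0.0028 to 0.23 for NR4A1, -0.031 to 0.20 for IER2 and -0.33 to 0.12 for ARC on day 10 over day 9. On day 15 over day 8 they were -0.034 to 0.24 for FOS, -0.039 to 0.0495 for JUN and -0.39 to 0.0485 for JUNB. Another 102 uncalled values had 2170 alternatives, of which 34 passed, in 13 of the 102, and 154 had the opposite sign, in 41 of the 102.

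Counts of called genes moved by over 1.5 times as follows. At 2-fold, they were 4 for day 4 over day 1, 3 for day 8 over day 4, 1 for day 15 over day 8, 27 over the 14 steps, and 0 for the late and early odd-even contrasts and for their difference. With limma on TPM, day 15 over day 8 had 3 with either pseudocount, the late odd-even contrast 2 with either, and the early one 2 with 0.1. With the same mean day, both odd-even contrasts had 1. Leaving out samples or days gave 10 for the joint test, 7 to 9 for day 1 over day 0, 7 to 10 for day 4 over day 1, 8 to 9 for day 8 over day 4, 4 to 5 for day 15 over day 8, 27 to 39 over the steps (27 without replicate 1), 1 to 5 for each odd-even contrast and 0 to 4 for their difference. The cause was not tested.

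Samples of equal replicate number did not pass the rule used here for pairing, which cannot show whether they share a differentiation. In no comparison did all 3 same-numbered pairs correlate above 0.1, the highest set being 0.092, 0.22 and 0.208 for day 15 with day 14, and the replicate block left every count as it was (43 over the steps). Low counts limit EGR2 and EGR3 most.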
